A study of Mus musculus with 18 samples.

Results

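Layer 4 of the neocortex was set against the layers on either side of it, layers 2-3 above and layers 5-6 below, inside each of 6 mice. All 18 libraries of the series were used, since every mouse gave 1 library of each layer, and the 6 L4 libraries were compared with the 12 libraries of the neighbours. The mice were CD-1, an outbred stock. Plasmids were electroporated in utero into the wall of the ventricle on embryonic day 14.5, and the brains were taken at postnatal day 7, cut sagittally at 300 µm and microdissected, with each layer pooled per mouse. The labels name 3 constructs: 3 mice received an empty plasmid (GFP mice), 2 received human FOXP2 cDNA (huFOXP2 mice) and 1 received mouse Foxp2 cDNA (moFoxp2 mouse), and the protocol names Gfp cDNA beside them. It calls the cells of L4 GFP-positive and those of both neighbours GFP-negative, and it describes dissection but no cell sorting; the libraries were treated as whole dissected layers, which the labels do not state. The protocol uses the word infragranular for both neighbours, and the layer in each title was followed. The name FOXP2 mice stands below for the 3 animals that received either FOXP2 cDNA. Ages, tissue and day of electroporation were shared by all groups.

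Layer 4 is the granular layer, where axons from the sensory thalamus end on small spiny stellate and star pyramidal neurons. In the mouse these neurons gather in barrels in the first week after birth, and the nuclear receptor gene Rorb is the usual mark of them. The layers around it are built differently. L2-3 lies towards the pia and its meningeal cells, without bordering them. L5-6 contains the large projection neurons, the corticothalamic neurons that carry Foxp2, the subplate, and the first myelinating oligodendrocytes above the white matter. A gene can therefore be high in L4 because it is on a slope through the depth of the cortex, so L4 was compared with each neighbour separately. A gene is said to peak in L4 where it was higher in L4 than in L2-3 and also higher than in L5-6, each at an adjusted p under 0.05 (edgeR's quasi-likelihood test with the mouse as a block, Benjamini-Hochberg over 15295 genes), and to dip where it was lower than both. Levels are CPM, counts scaled to a common library size, and differences are log2 folds with standard errors (SE). In such bulk libraries, fewer cells of a type and less RNA per cell cannot be told apart.

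Library totals lay between 10111149 and 23404528 counts, and mitochondrial reads made up between 2.99% and 7.50% of them. Foxp2 itself ran from 5.40 to 8.74 CPM in L4 of the GFP mice and stood at 34.6 CPM in the moFoxp2 mouse and at 33.4 and 64.7 CPM in the huFOXP2 mice; the same order held in L2-3, with 1.77 to 6.51 CPM against 20.0 to 52.2 CPM. How reads of the human cDNA were counted on the mouse gene is not given in the sources used here. A pair of mice stood apart in how clearly their layers separated. In GFP mouse 1 the L2-3 library held Rorb at 207 CPM, beside 41.6 to 124 CPM in the other L2-3 libraries, and its L5-6 library had the highest summed astrocyte, microglia and oligodendrocyte markers. In huFOXP2 mouse 1 the L5-6 library held Rorb at 161 CPM, beside 41.8 to 129 CPM in the others, and this mouse had summed photoreceptor markers of 15.1 to 28.4 CPM, with 1.46 to 3.83 CPM in all other libraries.

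Dips were more numerous and deeper than peaks. Of 15295 genes tested, 645 peaked in L4 (4.22%) and 1097 dipped (7.17%). The smaller of a gene's 2 differences had a median of 0.27 among the peaks and -0.58 among the dips. Both differences reached at least 1.5-fold in 75 peak genes and 543 dip genes, and at least 2-fold in 9 and 133. Against the mean of both neighbours, 2757 genes were higher in L4 (18% of those tested) and 3157 lower (20.6%). Most of these were not peaks or dips. L4 was above L2-3 for 2708 genes (17.7%), below it for 2878 (18.8%), above L5-6 for 2389 (15.6%) and below it for 2975 (19.5%), and for 348 genes it was above L2-3 and below L5-6, with 126 genes going the other way.

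The share of peaks against dips depends on the scale set between libraries. With size factors taken from 13 pan-neuronal genes (chosen after the data were seen) in place of all genes, the median difference of all tested genes from the mean of both neighbours moved from 0.017 to -0.25, 61 genes peaked and 2418 dipped, and 4.83% of the genes called against the mean were higher in L4, beside 46.6%. With library totals and no further factor, 263 peaked and 1450 dipped, and 27.1% of the calls were higher. Both scales lower the median gene in L4, so that all 1097 dips were kept is no check of them. The pan-neuronal genes summed to 13150 to 15662 CPM in L4, 10724 to 13254 in L2-3 and 8206 to 13321 in L5-6, and L4 was the highest layer for this sum in 6 of 6 mice. Without GFP mouse 1 and huFOXP2 mouse 1, there were 758 peaks and 1191 dips, of which 483 and 907 were among those of all mice.

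**Figure D1:**
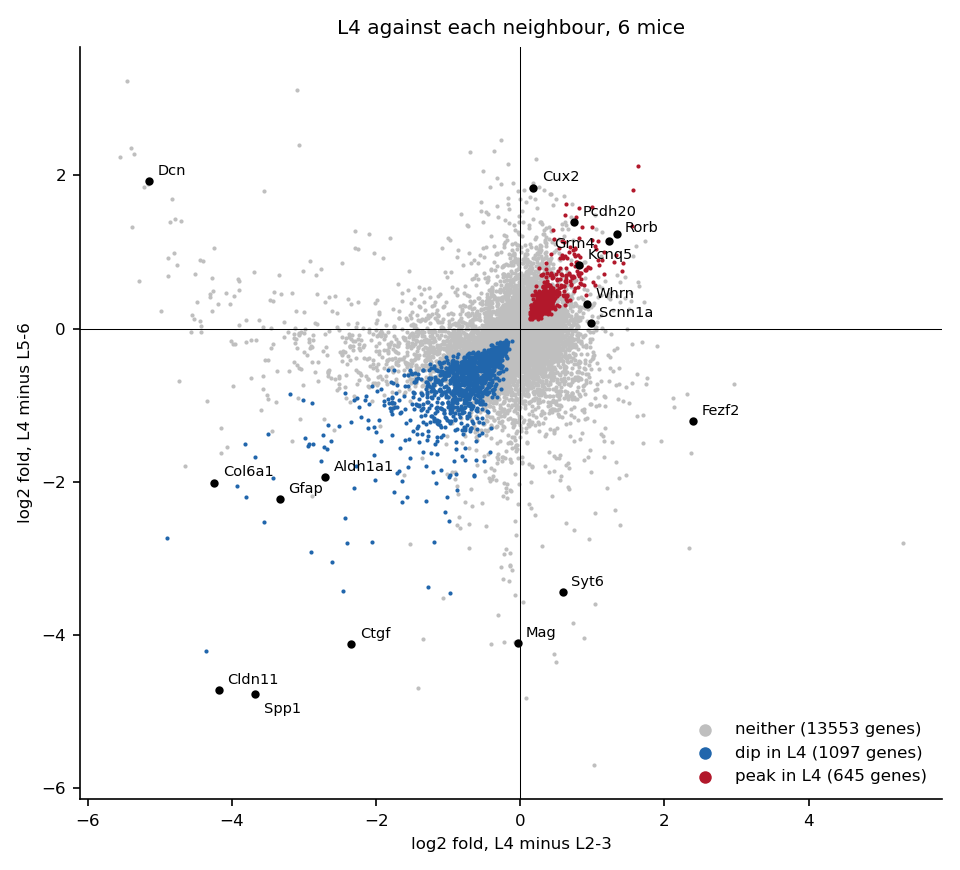
Difference of L4 from L2-3 (horizontal axis, log2 fold) and from L5-6 (vertical axis, log2 fold) for the 15295 genes tested, 1 point per gene, fitted over 6 mice. The 645 genes that peak (red, upper right) lie close to the origin, while the 1097 that dip (blue, lower left) reach far from it; Whrn and Scnn1a (black, named) lie right of 0 but near 0 on the vertical axis.

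Gene positions are on GRCm38 (mm10). Of the 3 defining markers of L4, Rorb peaked and Whrn and Scnn1a did not. Rorb, a nuclear receptor of the ROR family needed for the clustering of L4 neurons (ENSMUSG00000036192.15, chr19:18930605-19111196, minus strand), measured 41.6 to 207 CPM (median 73.1) in L2-3, 155 to 271 (median 235) in L4 and 41.8 to 161 (median 94.7) in L5-6. It differed by 1.34 ± 0.39 from L2-3 (adjusted p = 0.0154) and 1.24 ± 0.38 from L5-6 (adjusted p = 0.0234). L4 was above L2-3 in 6 of 6 mice and above L5-6 in 5 of 6, the exception being huFOXP2 mouse 1 with 155 CPM in L4 and 161 CPM in L5-6, and the ranges of L4 and of both neighbours overlapped. The call was lost when GFP mouse 2 was left out, at a smaller difference of 1.09 (adjusted p = 0.0816), and likewise for GFP mouse 3 (1.30, adjusted p = 0.0575), for huFOXP2 mouse 2 (1.14, adjusted p = 0.0686) and for the moFoxp2 mouse (1.16, adjusted p = 0.0738). Among GFP mice alone it was 0.72 (adjusted p = 0.288).

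Whrn, which encodes a scaffold protein of hair cells and axons, ran 13.4 to 37.7 CPM (median 20.1) in L2-3, 25.6 to 65.4 (median 40.02) in L4 and 24.4 to 43.2 (median 30.5) in L5-6. It exceeded L2-3 in 6 of 6 mice, by 0.92 ± 0.21 (adjusted p = 0.00431), and L5-6 in 4 of 6, by 0.32 ± 0.21 (adjusted p = 0.246). Scnn1a, which encodes a subunit of the epithelial sodium channel and drives Cre in a common L4 mouse line, was low throughout, at 1.37 to 4.4 CPM (median 1.7) in L2-3, 2.8 to 5.77 (median 4.14) in L4 and 3.02 to 5.07 (median 3.92) in L5-6. Its L4 level was above L2-3 in 6 of 6 mice, by 0.98 ± 0.17 (adjusted p = 0.000569), but differed from L5-6 by 0.070 ± 0.16 (adjusted p = 0.754). In the dissected L4 all 3 markers were thus above L2-3 in every mouse, and Rorb was above L5-6 in all mice but 1.

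Over the 14 L4 markers listed, 4 peaked (Rorb, Pcdh20, Rora and Plxnd1) and 2 dipped (Ctxn3 and Cyp39a1), beside 4.22% and 7.17% of all genes tested. The median difference from the mean of both neighbours was 0.57, beside 0.017 over all genes tested. Rora, the second ROR receptor, measured 31.1 to 53.8 CPM (median 42.7) in L2-3, 61.2 to 99.1 (median 85.8) in L4 and 34.1 to 67.5 (median 48.3) in L5-6. It differed by 0.92 ± 0.19 from L2-3 (adjusted p = 0.00233) and 0.78 ± 0.19 from L5-6 (adjusted p = 0.00713), and its L4 range lay wholly above that of L2-3. Plxnd1, a semaphorin receptor, differed by 0.61 ± 0.22 from L2-3 (adjusted p = 0.0466) and 1.13 ± 0.23 from L5-6 (adjusted p = 0.00221); this call was lost in 9 of 17 alternatives. Kcnh5 and Unc5d were above L5-6 by 1.46 and 1.17 (adjusted p = 0.00199 and 0.00347), with differences of 0.71 and 0.54 from L2-3 that did not pass (adjusted p = 0.0626 and 0.104). Hsd11b1 showed the reverse, 1.04 above L2-3 (adjusted p = 0.0004) and -0.017 from L5-6. Ctxn3 and Cyp39a1 went against the list. Ctxn3, a small membrane protein, differed by -2.43 ± 0.71 from L2-3 (adjusted p = 0.0156) and -2.48 ± 0.71 from L5-6 (adjusted p = 0.016), and was lowest in L4 in 4 of 6 mice. Cyp39a1, an oxysterol hydroxylase, measured 2.17 to 4.5 CPM (median 3.69) in L2-3, 1.4 to 1.83 (median 1.7) in L4 and 1.89 to 4.36 (median 2.41) in L5-6, and its L4 range lay below both neighbours. The summed level of the 14 markers was 1034 to 1520 CPM in L4, 559 to 1135 in L2-3 and 407 to 1009 in L5-6, and L4 was the highest in 6 of 6 mice. The count of peaks was 7 without GFP mouse 1, 4 without huFOXP2 mouse 1, 2 without GFP mouse 2 or GFP mouse 3, and 1 without the moFoxp2 mouse or huFOXP2 mouse 2, while the median stayed between 0.52 and 0.69.

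**Figure D2:**
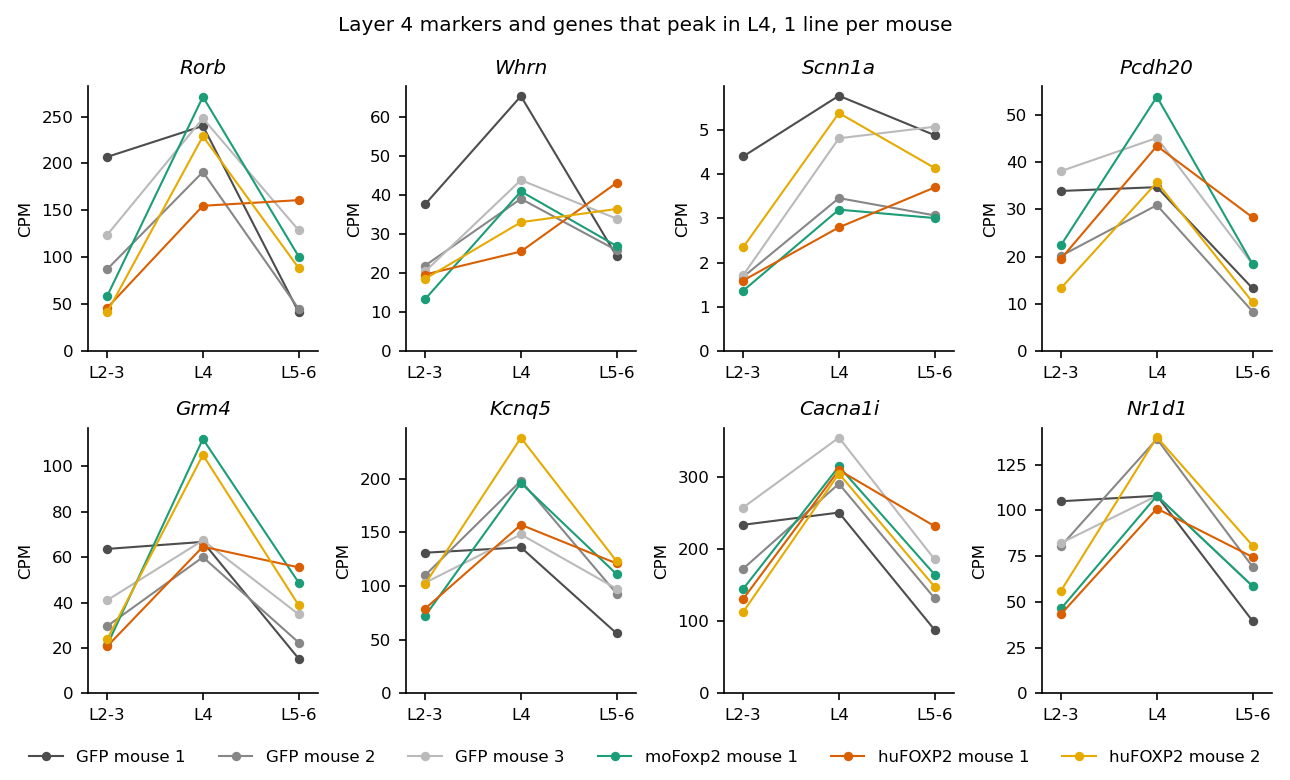
Level (CPM, linear axis from 0) of the 3 defining markers and of 5 genes that peak in L4, across L2-3, L4 and L5-6, with 1 line per mouse. Pcdh20, Grm4, Kcnq5, Cacna1i and Nr1d1 are highest in L4 in 6 of 6 mice, which the rule that chose them required. GFP mouse 1 (darkest grey) changes little from L2-3 to L4 for Rorb, Grm4 and Nr1d1. In huFOXP2 mouse 1 Rorb and Whrn do not drop from L4 to L5-6.

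The peak genes described next are the 15 with the largest smaller difference among genes highest in L4 in 6 of 6 mice with a mean of at least 1 CPM. Receptors and channels of the neuronal membrane made up 4 of them. Grm4, the presynaptic metabotropic glutamate receptor mGluR4 (ENSMUSG00000063239.17, chr17:27422387-27521403, minus strand), measured 20.7 to 63.6 CPM (median 26.7) in L2-3, 60.04 to 112 (median 67) in L4 and 15.3 to 55.5 (median 36.8) in L5-6. It differed by 1.22 ± 0.33 from L2-3 (adjusted p = 0.0114) and 1.14 ± 0.33 from L5-6 (adjusted p = 0.0163). Every L4 library was above every L5-6 library, and the overlap with L2-3 came from GFP mouse 1, at 63.6 CPM there.

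Cacna1i, the T-type calcium channel Cav3.3 (ENSMUSG00000022416.15, chr15:80287238-80398279, plus strand), measured 113 to 258 CPM (median 159) in L2-3, 251 to 355 (median 307) in L4 and 88.1 to 232 (median 157) in L5-6, a difference of 0.81 ± 0.20 from L2-3 (adjusted p = 0.0071) and 0.96 ± 0.20 from L5-6 (adjusted p = 0.0029). Kcnq5, a channel of the slow M-type potassium current (ENSMUSG00000028033.16, chr1:21398403-21961942, minus strand), measured 72.2 to 131 CPM (median 102) in L2-3, 136 to 238 (median 177) in L4 and 55.8 to 123 (median 104) in L5-6, and here the L4 range lay above both neighbours. Its difference was 0.81 ± 0.19 from L2-3 (adjusted p = 0.0039) and 0.83 ± 0.18 from L5-6 (adjusted p = 0.00387). Kcnh1, the voltage-gated channel EAG1 (ENSMUSG00000058248.12, chr1:192190774-192510159, plus strand), measured 62.5 to 115 CPM (median 74.7) in L2-3, 104 to 162 (median 146) in L4 and 32.8 to 109.8 (median 74.1) in L5-6, with ranges that overlapped on both sides, and a difference of 0.75 ± 0.22 from L2-3 (adjusted p = 0.0151) and 1.04 ± 0.22 from L5-6 (adjusted p = 0.00281). The calls of Cacna1i and Kcnq5 were lost in 1 of 17 alternatives, GFP mice only, those of Grm4 and Kcnh1 also without the moFoxp2 mouse or without huFOXP2 mouse 2, and that of Grm4 also without GFP mouse 2.

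Transcription factors beside Rorb were Barx2 and Nr1d1. Barx2, a homeobox gene (ENSMUSG00000032033.11, chr9:31846044-31913462, minus strand), measured 6.63 to 21.9 CPM (median 7.57) in L2-3, 16.7 to 26.7 (median 23.6) in L4 and 4.73 to 15.1 (median 10.8) in L5-6. It differed by 1.07 ± 0.29 from L2-3 (adjusted p = 0.0116) and 1.15 ± 0.29 from L5-6 (adjusted p = 0.00884), and L4 was separate from L5-6. Nr1d1, the clock repressor REV-ERBα, which binds the same DNA half-site as the ROR receptors (ENSMUSG00000020889.11, chr11:98767932-98775333, minus strand), measured 43.4 to 105 CPM (median 68.4) in L2-3, 101 to 140.4 (median 108) in L4 and 39.5 to 80.7 (median 64) in L5-6. Its difference was 0.78 ± 0.20 from L2-3 (adjusted p = 0.00863) and 0.87 ± 0.20 from L5-6 (adjusted p = 0.00491), again with L4 separate from L5-6. Of 50 cortical transcription factors tested, 4 peaked and 4 dipped, beside 4.22% and 7.17% of all genes tested, so the count of dips was near the background. The peaks were Rorb, Rora, Nr2f1, a regulator of the areal map of the cortex, and Bhlhe40, a clock-related repressor. Nr2f1 differed by 0.34 ± 0.12 from L2-3 (adjusted p = 0.035) and 0.46 ± 0.12 from L5-6 (adjusted p = 0.00832) and Bhlhe40 by 0.48 ± 0.11 from L2-3 (adjusted p = 0.0034) and 0.47 ± 0.11 from L5-6 (adjusted p = 0.00476). The call of Nr2f1 was lost in 9 of 17 alternatives. Without GFP mouse 1 there were 7 peaks in this list, and without GFP mouse 2, GFP mouse 3, the moFoxp2 mouse or huFOXP2 mouse 2 there were 2.

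Adhesion molecules were another group. Pcdh20, a protocadherin already known as an L4 marker (ENSMUSG00000050505.7, chr14:88464743-88471396, minus strand), measured 13.4 to 38 CPM (median 21.4) in L2-3, 30.9 to 53.8 (median 39.6) in L4 and 8.41 to 28.3 (median 15.8) in L5-6. It differed by 0.75 ± 0.21 from L2-3 (adjusted p = 0.0126) and 1.39 ± 0.21 from L5-6 (adjusted p = 0.00032). Fat3, a giant cadherin that shapes dendrites (ENSMUSG00000074505.5, chr9:15910189-16501285, minus strand), measured 49.7 to 154 CPM (median 91.7) in L2-3, 109 to 246 (median 191) in L4 and 65 to 143 (median 106) in L5-6, with a difference of 0.97 ± 0.22 from L2-3 (adjusted p = 0.00336) and 0.79 ± 0.21 from L5-6 (adjusted p = 0.0114). Dcbld2, a transmembrane protein with a discoidin domain, measured 49.7 to 92.4 CPM (median 69.8) in L2-3, 84.5 to 149.7 (median 117) in L4 and 39.1 to 108 (median 69.1) in L5-6, and differed by 0.77 ± 0.19 from L2-3 (adjusted p = 0.00628) and 0.82 ± 0.19 from L5-6 (adjusted p = 0.00483). For Fat3 and Dcbld2 the L4 range overlapped both neighbours although L4 was the highest layer in every mouse, as the rule that chose them required.

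The remaining named peaks were of mixed function. Slc30a3, the vesicular zinc transporter ZnT3 of cortical glutamate terminals, measured 27.9 to 52.4 CPM (median 30.4) in L2-3, 36.6 to 78.4 (median 62.4) in L4 and 12.3 to 55.5 (median 30.1) in L5-6. Sypl2, a synaptophysin relative best known from muscle, measured 2.68 to 5.27 CPM (median 4.58) in L2-3, 4.01 to 23.6 (median 12.9) in L4 and 2.81 to 12.7 (median 5.24) in L5-6. Wif1, a secreted Wnt inhibitor, measured 0.897 to 1.87 CPM (median 1.36) in L2-3, 1.65 to 3.84 (median 2.61) in L4 and 0.148 to 1.54 (median 1.13) in L5-6. All 3 differed from both neighbours: Slc30a3 by 0.76 ± 0.24 from L2-3 (adjusted p = 0.0264) and 0.94 ± 0.25 from L5-6 (adjusted p = 0.00958), Sypl2 by 1.33 ± 0.25 from L2-3 (adjusted p = 0.00107) and 0.96 ± 0.24 from L5-6 (adjusted p = 0.00728), and Wif1 by 0.86 ± 0.27 from L2-3 (adjusted p = 0.025) and 1.33 ± 0.28 from L5-6 (adjusted p = 0.00321).

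Mybpc1, a myosin-binding protein, and Grap2, an adaptor of immune receptor signalling, were low but cleanly separated. Mybpc1 measured 1.19 to 4.85 CPM (median 3.53) in L2-3, 5.31 to 7.17 (median 6.03) in L4 and 1.03 to 3.7 (median 2.6) in L5-6, and differed by 0.99 ± 0.31 from L2-3 (adjusted p = 0.0237) and 1.33 ± 0.32 from L5-6 (adjusted p = 0.00635). Grap2 measured 0.941 to 2.11 CPM (median 1.36) in L2-3, 2.44 to 2.76 (median 2.63) in L4 and 0.739 to 2.05 (median 1.58) in L5-6, and differed by 0.91 ± 0.23 from L2-3 (adjusted p = 0.00695) and 0.76 ± 0.22 from L5-6 (adjusted p = 0.0173). In both genes every L4 library exceeded all 12 neighbouring libraries. Ankrd34c, an ankyrin-repeat gene, measured 7.34 to 16.5 CPM (median 10.02) in L2-3, 16.6 to 24.7 (median 20.9) in L4 and 5.03 to 20.3 (median 11.8) in L5-6, and differed by 0.85 ± 0.27 from L2-3 (adjusted p = 0.0225) and 0.81 ± 0.26 from L5-6 (adjusted p = 0.0277). Of the 15, Grm4, Barx2, Mybpc1, Kcnq5, Fat3, Nr1d1, Dcbld2, Grap2, Slc30a3 and Kcnh1 overlap another annotated gene, so reads of a partner cannot be told apart from theirs where the counting did not use strand.

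None of the 15 kept its call among GFP mice alone, where 3 mice remain, while 13 kept it among FOXP2 mice alone. Leaving out 1 mouse, 15 were kept without GFP mouse 1, 14 without huFOXP2 mouse 1, 12 without GFP mouse 3, 9 without GFP mouse 2 and 7 each without the moFoxp2 mouse and without huFOXP2 mouse 2. Wif1 was lost without any of 4 mice and Slc30a3 without any of 5. With the pan-neuronal scale 13 of 15 were kept, and again Wif1 and Slc30a3 were lost.

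Since Rorb, Rora and Nr1d1, all of which peak, encode receptors that bind the half-site AGGTCA, promoters were read for it. RefSeq promoters (GRCm38.p6, 250 bases before to 50 after a start) matched 476 of the 645 peak genes and 838 of the 1097 dip genes. AGGTCA on either strand stood in 9.50% of the 621 promoters of peak genes, 13.3% of the 1058 of dip genes and 12.3% of all 14614. The longer TAGGTCA, which contains it, stood in 0.966%, 2.17% and 1.72%, and CAGATG, an E-box of NeuroD factors, in 10.8%, 14.3% and 12.1%. Among the 15 named peaks, 13 had a promoter and 2 held AGGTCA. Over all promoters of peak genes 59 held it, and among the named dips Gfap did. The 2 named peaks are shown on the plus strand of their genes as examples, with the letters of the half-site, here read on the other strand as TGACCT, in capitals. Kcnh1 is at chr1:192190527-192190826 (plus) and Grap2 at chr15:80623233-80623532 (plus).
Kcnh1: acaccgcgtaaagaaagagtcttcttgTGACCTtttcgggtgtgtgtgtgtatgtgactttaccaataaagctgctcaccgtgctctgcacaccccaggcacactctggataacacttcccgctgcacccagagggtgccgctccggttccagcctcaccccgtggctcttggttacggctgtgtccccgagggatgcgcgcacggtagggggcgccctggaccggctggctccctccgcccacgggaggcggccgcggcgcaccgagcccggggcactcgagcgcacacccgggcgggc
Grap2: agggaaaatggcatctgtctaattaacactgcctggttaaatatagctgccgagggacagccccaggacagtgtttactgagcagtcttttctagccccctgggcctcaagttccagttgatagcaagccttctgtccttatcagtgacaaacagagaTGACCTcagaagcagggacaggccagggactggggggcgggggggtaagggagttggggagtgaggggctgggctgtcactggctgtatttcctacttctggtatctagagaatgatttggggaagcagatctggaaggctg
In Kcnh1 the motif lies near the upstream end of the window and in Grap2 in its middle. A match of these letters is not a bound site, and no binding was measured.

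Of 15 GABA receptor genes 5 peaked and none dipped, beside 4.22% and 7.17% of all genes tested. The median difference from the mean of both neighbours was 0.25. Against L2-3, 13 were above and 0 below, with a median of 0.39. Against L5-6, 5 were above and 2 below, with a median of 0.13. Gabra2, Gabra4, Gabrb1 and Gabrg3 were among the peaks. Gabra4, an alpha subunit common in thalamus and cortex, measured 40.5 to 68.2 CPM (median 54.5) in L2-3, 68.1 to 93.1 (median 88.5) in L4 and 37.3 to 78 (median 54.5) in L5-6. It differed by 0.64 ± 0.16 from L2-3 (adjusted p = 0.00662) and 0.65 ± 0.16 from L5-6 (adjusted p = 0.00656). Gabrb1 differed by 0.52 ± 0.096 from L2-3 (adjusted p = 0.00109) and 0.45 ± 0.096 from L5-6 (adjusted p = 0.00327), and L4 was the highest layer in 6 of 6 mice for both.

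The potassium channel list, which does not hold the dip gene Kcnj5, gave 5 peaks and 0 dips of 46 (Kcnq5, Kcnh1 and Kcnc1 among the peaks). Of these 46, 29 were above L2-3 and 0 below it, while 13 were above L5-6 and 12 below it. Sodium and calcium channels gave 4 peaks and 0 dips of 23 (Cacna1i, Cacna1b, Cacna1c and Cacnb1). Of these 23, 18 were above L2-3 and 0 below it, while 6 were above L5-6 and 5 below it. Kcnc1, which encodes a fast Kv3 channel of rapidly firing cells, differed by 0.25 ± 0.084 from L2-3 (adjusted p = 0.0317) and 0.32 ± 0.084 from L5-6 (adjusted p = 0.0104), and L4 was the highest layer in 6 of 6 mice. NMDA and metabotropic glutamate receptors gave 2 peaks of 13, Grm4 and Grin2d, and AMPA and kainate receptors 1 of 16, Grik1. Over all genes 4.22% peaked. These counts moved when 1 mouse was left out: without GFP mouse 2, huFOXP2 mouse 2 or the moFoxp2 mouse, 2, 2 and 3 GABA receptors, 2, 1 and 1 potassium channels, 2, 2 and 3 sodium and calcium channels, and 0, 1 and 0 NMDA and metabotropic receptors peaked. Without GFP mouse 3, huFOXP2 mouse 1 or GFP mouse 1 these were 3, 4 and 4 GABA receptors, 4, 4 and 8 potassium channels, 2, 2 and 5 sodium and calcium channels, and 2, 1 and 4 glutamate receptors. With the pan-neuronal scale, the list medians became -0.0021 for GABA receptors, 0.00040 for potassium channels and -0.0048 for sodium and calcium channels, that of L4 markers moved from 0.57 to 0.32, and that of all genes from 0.017 to -0.25. On that scale 1 GABA receptor, 2 potassium channels and 1 sodium or calcium channel still peaked.

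**Figure D3:**
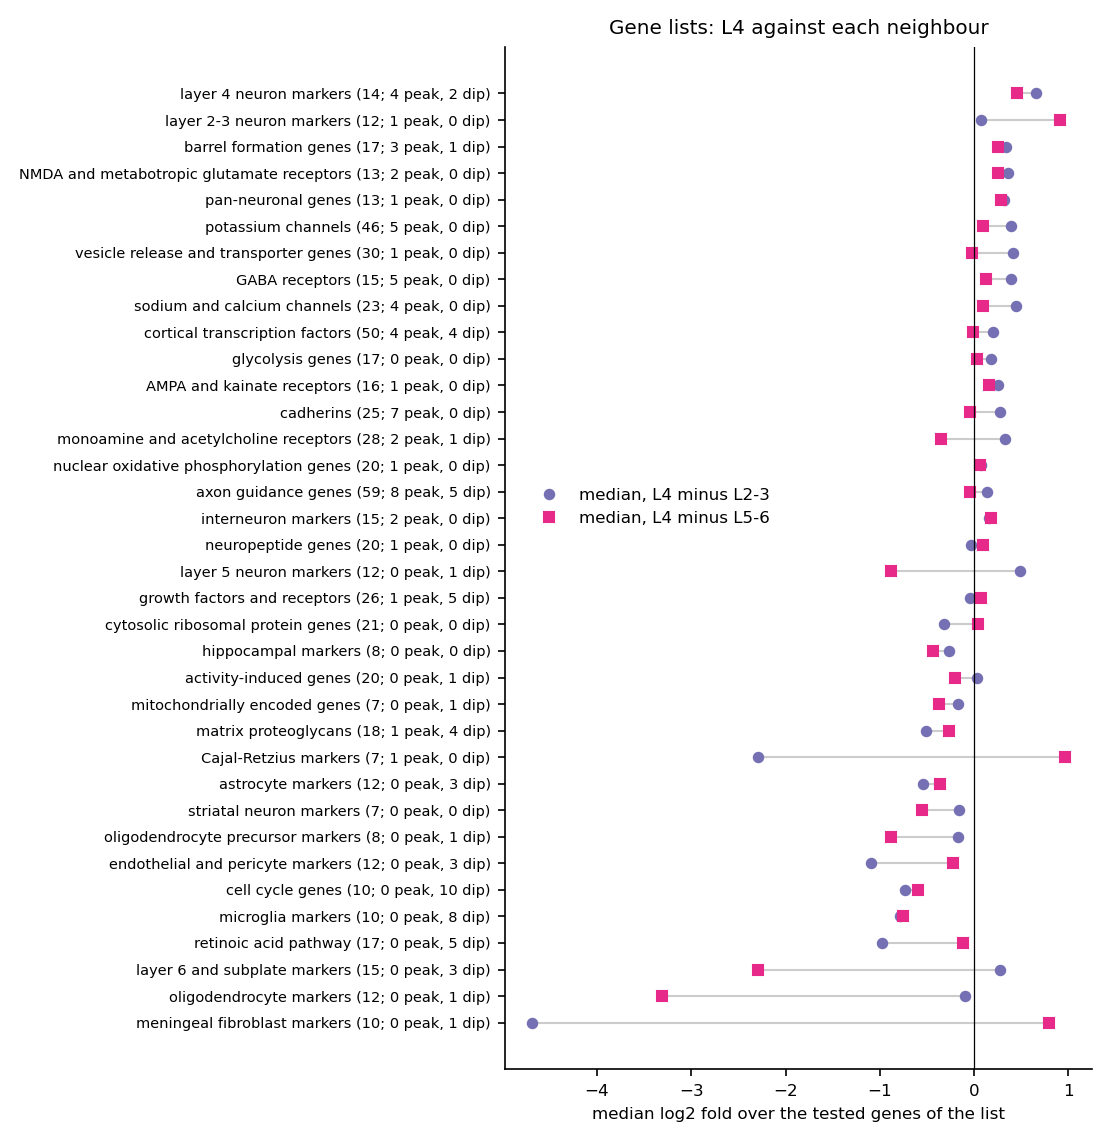
Median log2 fold over the tested genes of each list, L4 minus L2-3 (circles) and L4 minus L5-6 (squares), with the number tested and the numbers that peak and dip in brackets. Lists whose 2 symbols are both right of 0, such as layer 4 markers and pan-neuronal genes, have medians above both neighbours, while microglia and cell cycle genes lie left of 0 on both; layer 5, layer 6 and meningeal markers have their symbols on opposite sides.

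Cadherins gave 7 peaks of 25 and no dip, beside 4.22% peaks and 7.17% dips over all genes tested. The peaks were the classical type II cadherins Cdh6, Cdh7, Cdh8 and Cdh12, and the protocadherins Pcdh1, Pcdh19 and Pcdh20. The list median was 0.10. Of the 25, 7 were lower than the mean of both neighbours and 9 higher, beside 20.6% and 18% of all genes. Cdh6 measured 95.5 to 191 CPM (median 121) in L2-3, 124 to 219.8 (median 210.4) in L4 and 60.7 to 130.4 (median 106) in L5-6, and differed by 0.55 ± 0.16 from L2-3 (adjusted p = 0.0159) and 0.92 ± 0.16 from L5-6 (adjusted p = 0.000862). Cdh7 measured 9.37 to 15.3 CPM (median 10.8) in L2-3, 14 to 27.4 (median 24.6) in L4 and 6.65 to 23.4 (median 17.8) in L5-6, and differed by 1.04 ± 0.17 from L2-3 (adjusted p = 0.000458) and 0.57 ± 0.17 from L5-6 (adjusted p = 0.0177). The calls of Cdh6 and Cdh7 were each lost in 4 of 17 alternatives, among them leaving out the moFoxp2 mouse or huFOXP2 mouse 2 for Cdh6 and GFP mouse 2 or GFP mouse 3 for Cdh7. Without the moFoxp2 mouse 2 cadherins peaked, without GFP mouse 3 or huFOXP2 mouse 2 there were 4, and without each of the others 5 or 7. With the pan-neuronal scale the list median was -0.17, and 2 peaked.

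Of 59 axon guidance genes, beside 4.22% peaks and 7.17% dips over all genes, 8 peaked (Epha4, Ephb2, Ephb6, Sema4f, Sema7a, Plxna1, Plxnd1 and Robo2) and 5 dipped (Sema3d, Plxnb2, Nrp1, Robo1 and Ntn1), with a median of 0.045. Sema7a, a membrane-anchored semaphorin of thalamic target layers, measured 318 to 819 CPM (median 449) in L2-3, 704 to 893 (median 763) in L4 and 239 to 493 (median 426) in L5-6. It differed by 0.65 ± 0.22 from L2-3 (adjusted p = 0.0308) and 0.92 ± 0.22 from L5-6 (adjusted p = 0.00524). Nrp1, a receptor of class 3 semaphorins and VEGF, measured 21.1 to 40.2 CPM (median 29.9) in L2-3, 13.7 to 20.7 (median 17.5) in L4 and 23.9 to 37.4 (median 30.9) in L5-6, and differed by -0.80 ± 0.15 from L2-3 (adjusted p = 0.00124) and -0.80 ± 0.15 from L5-6 (adjusted p = 0.00145). The paired receptors Robo1 and Robo2 lay on opposite sides: Robo2 was above both neighbours by 0.35 and 0.30 (adjusted p = 0.0141 and 0.0311) and Robo1 differed by -0.57 and -0.65 (adjusted p = 0.00375 and 0.00203). The count of peaks was 0 to 12 when 1 mouse was left out, with 0 without huFOXP2 mouse 2, 1 without GFP mouse 2 or the moFoxp2 mouse, 4 without GFP mouse 3 or huFOXP2 mouse 1 and 12 without GFP mouse 1, and it was 1 with the pan-neuronal scale; dips numbered 3 to 7.

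Genes needed for barrels gave 3 peaks of 17, beside 4.22% of all genes tested, with a median of 0.36. Epha4, an ephrin receptor, differed by 0.42 ± 0.14 from L2-3 (adjusted p = 0.0332) and 0.73 ± 0.14 from L5-6 (adjusted p = 0.00191), a call lost in 8 of 17 alternatives, and Nr2f1, given above, is also in this list. Maoa, the monoamine oxidase that clears serotonin, dipped by a small amount, with 63.6 to 85.2 CPM (median 75.4) in L2-3, 59.5 to 68.3 (median 62.7) in L4 and 65.3 to 76 (median 71.9) in L5-6. Interneuron markers gave 2 peaks of 15: Slc32a1, the vesicular GABA transporter, differed by 0.46 ± 0.071 from L2-3 (adjusted p = 0.000275) and 0.49 ± 0.071 from L5-6 (adjusted p = 0.00021), and Calb2 (calretinin) by 0.74 ± 0.21 from L2-3 (adjusted p = 0.0151) and 0.97 ± 0.22 from L5-6 (adjusted p = 0.00416). Sst was on a slope instead, 0.89 above L2-3 and -1.18 from L5-6, and the median of the list was 0.028. Leaving out 1 mouse changed the barrel count to 1 without GFP mouse 3, the moFoxp2 mouse or huFOXP2 mouse 2, to 2 without GFP mouse 2 and to 6 without GFP mouse 1.

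The 15 named dips, chosen by the same rule with L4 as the lowest layer, included genes of glia, of extracellular matrix and of the subplate. Cldn11, the tight-junction protein of myelin and of the arachnoid barrier (ENSMUSG00000037625.7, chr3:31149920-31164324, plus strand), had the deepest dip of these 15, at 3.2 to 80.2 CPM (median 29.3) in L2-3, 0.64 to 4.35 (median 1.19) in L4 and 22 to 109.8 (median 34) in L5-6. It differed by -4.18 ± 0.76 from L2-3 (adjusted p = 0.000955) and -4.72 ± 0.76 from L5-6 (adjusted p = 0.000487). Gfap, the filament of astrocytes (ENSMUSG00000020932.14, chr11:102887336-102900912, minus strand), measured 304 to 1119 CPM (median 585) in L2-3, 43.5 to 96.9 (median 57.7) in L4 and 110.4 to 698 (median 231) in L5-6. Its difference was -3.34 ± 0.36 from L2-3 (adjusted p = 1.87e-05) and -2.23 ± 0.35 from L5-6 (adjusted p = 0.000378), and every L4 library was below all 12 neighbouring libraries.

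Spp1, the matrix protein osteopontin, measured 1.14 to 31.9 CPM (median 9.9) in L2-3, 0.0825 to 2.35 (median 0.865) in L4 and 2.19 to 104 (median 14.4) in L5-6, a difference of -3.68 ± 0.71 from L2-3 (adjusted p = 0.00139) and -4.77 ± 0.69 from L5-6 (adjusted p = 0.000222); its L4 range overlapped both neighbours. C4b, a complement component made by glia, whose reads may be shared with its near-identical neighbour C4a, measured 5.55 to 19.7 CPM (median 13.2) in L2-3, 0.731 to 3.71 (median 2.22) in L4 and 5.48 to 44.6 (median 16.6) in L5-6. It differed by -2.61 ± 0.46 from L2-3 (adjusted p = 0.000755) and -3.05 ± 0.45 from L5-6 (adjusted p = 0.000258), with L4 separate from both sides. Aspg, an asparaginase, was detected at 1.02 to 4.68 CPM (median 2.61) in L2-3, 0.0454 to 0.33 (median 0.275) in L4 and 0.342 to 3.33 (median 1.17) in L5-6, and differed by -3.56 ± 0.41 from L2-3 (adjusted p = 2.96e-05) and -2.52 ± 0.45 from L5-6 (adjusted p = 0.000989).

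Of 15 L6 and subplate markers 3 dipped, beside 7.17% of all genes tested. In this list 2 were above L2-3, beside 17.7% of all genes, and the list median against L2-3 was 0.28. Ctgf (ENSMUSG00000019997.11, chr10:24595442-24598683, plus strand), a secreted matricellular protein and mark of the subplate, measured 3.77 to 16.6 CPM (median 15.2) in L2-3, 1.5 to 4.9 (median 2.25) in L4 and 17.9 to 62.1 (median 43.1) in L5-6. It differed by -2.34 ± 0.35 from L2-3 (adjusted p = 0.000213) and -4.12 ± 0.34 from L5-6 (adjusted p = 2.15e-06). Sulf1, a heparan sulfatase of the subplate and of meninges, measured 2.17 to 14 CPM (median 7.4) in L2-3, 0.979 to 1.95 (median 1.44) in L4 and 6.58 to 24.9 (median 15.5) in L5-6, and differed by -2.46 ± 0.42 from L2-3 (adjusted p = 0.000573) and -3.42 ± 0.40 from L5-6 (adjusted p = 4.23e-05). Nxph4, also a subplate gene, differed by -0.98 ± 0.35 from L2-3 (adjusted p = 0.0384) and -3.45 ± 0.31 from L5-6 (adjusted p = 4.73e-06). By their medians L5-6 was the highest layer for all 3 genes and L2-3 stood between: the median of Ctgf was 43.1 CPM in L5-6, 15.2 in L2-3 and 2.25 in L4.

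The 3 collagen genes among the 15 named dips had their highest median in L2-3; no list of collagens was counted. Col6a1 (ENSMUSG00000001119.7, chr10:76708792-76726168, minus strand) measured 18.6 to 132 CPM (median 58.5) in L2-3, 1.46 to 6.18 (median 3.23) in L4 and 8.08 to 18.3 (median 13.8) in L5-6, a difference of -4.24 ± 0.41 from L2-3 (adjusted p = 8.52e-06) and -2.01 ± 0.41 from L5-6 (adjusted p = 0.00249). Col5a1 measured 9.6 to 128 CPM (median 44.1) in L2-3, 2.47 to 5.94 (median 3.09) in L4 and 6.16 to 23.4 (median 16.1) in L5-6, and differed by -3.81 ± 0.48 from L2-3 (adjusted p = 5.95e-05) and -2.20 ± 0.49 from L5-6 (adjusted p = 0.00388). Col16a1 measured 15.3 to 39.6 CPM (median 25.2) in L2-3, 3.02 to 10.8 (median 6.4) in L4 and 9.38 to 39.3 (median 18.3) in L5-6, and differed by -2.04 ± 0.33 from L2-3 (adjusted p = 0.000448) and -1.64 ± 0.33 from L5-6 (adjusted p = 0.00208). L4 was separate from both neighbours for Col5a1 and Col6a1.

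Meningeal markers, whose list itself holds the collagen genes Col1a1, Col1a2 and Col3a1, also had their highest sum in L2-3. Against L5-6 their median was 0.79, with 3 genes above and 1 below. Col6a1, Col5a1 and Col16a1 were lower in L4 than in L5-6. The 10 meningeal fibroblast genes summed to 427 to 4524 CPM in L2-3, 29.1 to 128 in L4 and 36.7 to 59.7 in L5-6, none was at 0 in all L4 libraries, and their part in the collagen result was not tested. All 10 were lower in L4 than in L2-3, beside 18.8% of all genes tested, and 1 of them, Lum, dipped, beside 7.17%. Dcn, Aldh1a2 and Slc6a13 were higher in L4 than in L5-6, by 1.93, 2.36 and 1.88 (adjusted p = 0.00419, 0.0152 and 0.0300). The 8 markers of Cajal-Retzius neurons summed to 235 to 794 CPM in L2-3, 155 to 296 in L4 and 78.6 to 187 in L5-6. Whether the L2-3 pieces also held layer 1 was not tested.

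Other named dips included regulators. Osr1, a zinc-finger factor of mesenchyme, was at 1.54 to 17.7 CPM (median 4.84) in L2-3, 0 to 0.412 (median 0.118) in L4 and 0.479 to 1.98 (median 1.2) in L5-6, and differed by -4.91 ± 0.60 from L2-3 (adjusted p = 4.47e-05) and -2.73 ± 0.71 from L5-6 (adjusted p = 0.00951). Atoh8, a bHLH factor, measured 2.08 to 5.54 CPM (median 3.38) in L2-3, 0.0825 to 0.414 (median 0.154) in L4 and 0.548 to 1.85 (median 0.77) in L5-6, and differed by -3.93 ± 0.39 from L2-3 (adjusted p = 1.03e-05) and -2.05 ± 0.46 from L5-6 (adjusted p = 0.0042). Syne3, a nuclear envelope linker, differed by -2.28 ± 0.51 from L2-3 (adjusted p = 0.00351) and -1.79 ± 0.53 from L5-6 (adjusted p = 0.0188), and Kcnj5, a G-protein-gated potassium channel, by -1.75 ± 0.34 from L2-3 (adjusted p = 0.0016) and -2.13 ± 0.34 from L5-6 (adjusted p = 0.000398). Of the 15, 12 kept their call among GFP mice alone and 13 among FOXP2 mice alone, and all 15 kept it when any 1 mouse was left out.

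**Figure D4:**
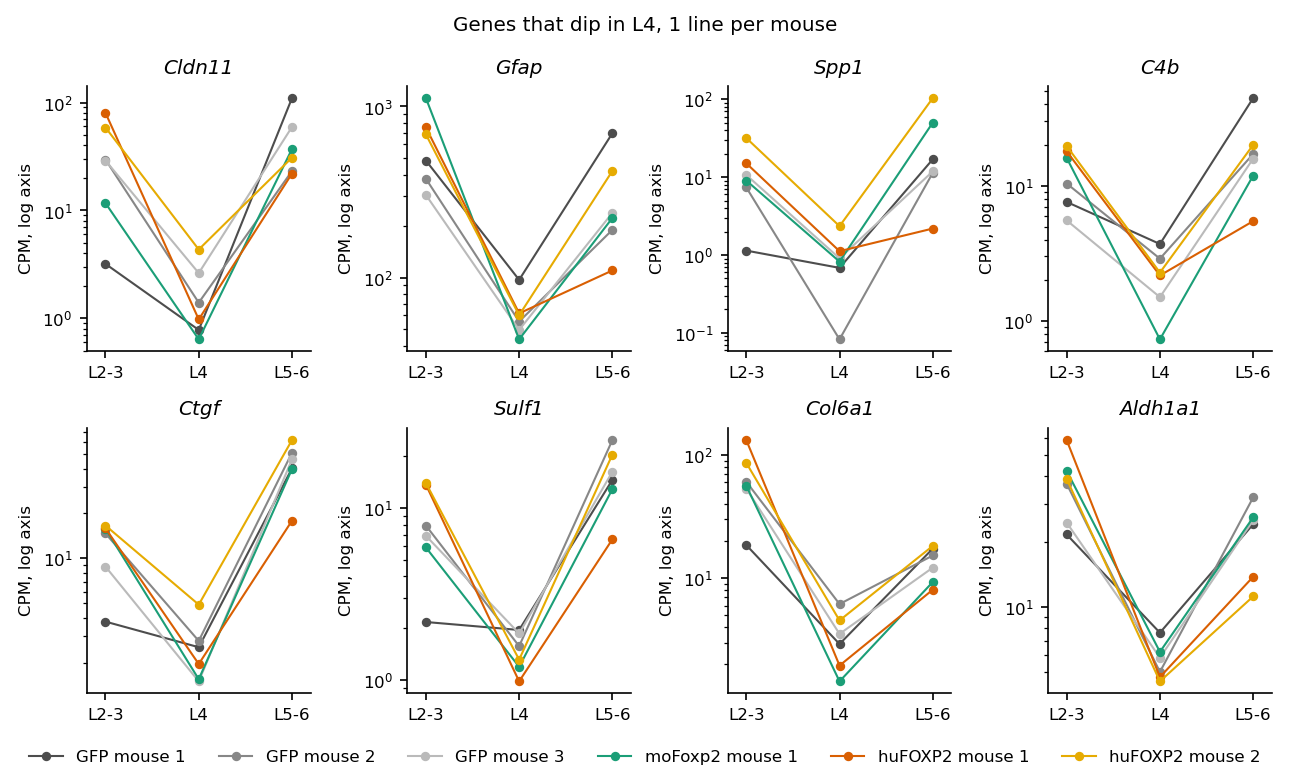
Level (CPM, log axis) of 8 genes that dip in L4, across L2-3, L4 and L5-6, with 1 line per mouse. L4 is the lowest layer in 6 of 6 mice for all 8, which the rule that chose them required. Ctgf is higher in L5-6 than in L2-3 in 6 mice and Sulf1 in 5, and Col6a1 is higher in L2-3 in every mouse.

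By the list median, genes of retinoic acid signalling were low in L4 mainly against L2-3. This vitamin A derivative is made by aldehyde dehydrogenases in the meninges and in subsets of cells, and read by RAR and RXR receptors. Of 17 genes tested 5 dipped and none peaked, beside 7.17% dips and 4.22% peaks over all genes tested. Against the mean of both neighbours 12 were lower, beside 20.6% of all genes, and the median was -0.87. The median was -0.98 against L2-3, with 11 genes below it. Against L5-6 it was -0.11, with 7 genes below and 2 above. Aldh1a1 (ENSMUSG00000053279.7, chr19:20492715-20643465, plus strand), a synthesizing enzyme, measured 21.6 to 58.8 CPM (median 37.9) in L2-3, 4.55 to 7.62 (median 5.44) in L4 and 11.2 to 32 (median 24.6) in L5-6. It differed by -2.71 ± 0.29 from L2-3 (adjusted p = 1.65e-05) and -1.94 ± 0.29 from L5-6 (adjusted p = 0.000264), with L4 separate from both neighbours. Rxra, a receptor, measured 13.1 to 26.3 CPM (median 19.7) in L2-3, 7.68 to 11.3 (median 9.85) in L4 and 12.5 to 20.6 (median 14.1) in L5-6, and differed by -1.05 ± 0.18 from L2-3 (adjusted p = 0.000514) and -0.61 ± 0.18 from L5-6 (adjusted p = 0.0161), and Rxrg by -1.17 ± 0.42 from L2-3 (adjusted p = 0.0426) and -2.01 ± 0.40 from L5-6 (adjusted p = 0.00209).

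Rbp4, the retinol carrier, differed by -0.98 ± 0.27 from L2-3 (adjusted p = 0.0118) and -1.91 ± 0.26 from L5-6 (adjusted p = 0.000123), and Cyp26b1, the enzyme that degrades retinoic acid, by -1.64 ± 0.44 from L2-3 (adjusted p = 0.00967) and -2.26 ± 0.43 from L5-6 (adjusted p = 0.00153). Aldh1a2, the meningeal enzyme, did not dip: it differed by -5.40 from L2-3 and 2.36 from L5-6. The list summed to 153 to 174 CPM in L4, 201 to 422 in L2-3 and 173 to 204 in L5-6, and L4 was lowest in 6 of 6 mice. When 1 mouse was left out 3 to 6 of the genes dipped, with 3 without huFOXP2 mouse 1 and 3 without huFOXP2 mouse 2 (Rbp4 was lost in both), and 1 dipped among GFP mice alone. The meningeal list, which shares Aldh1a2 with this list, also had its highest sum in L2-3, as given above. The part of meningeal cells in the retinoic acid result was not tested.

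Markers of glial and vascular cells held dips and no peaks, beside 7.17% dips and 4.22% peaks over all genes tested. Of 10 microglia markers 8 dipped, 10 were lower than the mean of both neighbours, and the median was -0.72. Cx3cr1, the fractalkine receptor, measured 47.5 to 86.4 CPM (median 66) in L2-3, 28 to 66.6 (median 40.6) in L4 and 58.4 to 159 (median 75.8) in L5-6, and differed by -0.59 ± 0.15 from L2-3 (adjusted p = 0.00819) and -0.94 ± 0.15 from L5-6 (adjusted p = 0.000474). C1qa, a complement subunit, measured 28.3 to 65.5 CPM (median 45.4) in L2-3, 14.8 to 33.5 (median 20.9) in L4 and 30.2 to 66.2 (median 36) in L5-6, and differed by -0.98 ± 0.17 from L2-3 (adjusted p = 0.000776) and -0.81 ± 0.17 from L5-6 (adjusted p = 0.00312). Trem2, a lipid receptor, differed by -0.84 ± 0.17 from L2-3 (adjusted p = 0.00204) and -1.15 ± 0.17 from L5-6 (adjusted p = 0.000245). The 10 genes summed to 198 to 410 CPM in L4, 328 to 597 in L2-3 and 358 to 838 in L5-6, with L4 lowest in 6 of 6 mice; the value of 838 was GFP mouse 1, without which 9 of 10 dipped. Among GFP mice alone 2 dipped, and 3 did without the mouse as a block.

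Astrocyte markers gave 3 dips of 12 (Gfap, Aqp4 and Slc1a3), beside 7.17% of all genes tested, with a median of -0.52. Against L2-3, 7 of the 12 were lower in L4 and 2 were higher, and 7 were below L5-6. The astrocyte sum was also lowest in L4 in 6 of 6 mice. Aqp4, the water channel of astrocyte endfeet, measured 393 to 821 CPM (median 456) in L2-3, 199 to 261 (median 227) in L4 and 280.3 to 662 (median 334) in L5-6, and differed by -1.15 ± 0.19 from L2-3 (adjusted p = 0.000407) and -0.67 ± 0.18 from L5-6 (adjusted p = 0.0125). Slc1a3, the glutamate transporter GLAST, differed by -0.26 ± 0.095 from L2-3 (adjusted p = 0.0437) and -0.26 ± 0.095 from L5-6 (adjusted p = 0.0483), so the filament gene Gfap and the broadly expressed transporter were far apart in size. Endothelial and pericyte markers gave 3 dips of 12 (Flt1, Pdgfrb and Abcc9). Of the 12, 11 were below L2-3 and 4 below L5-6, where the median was -0.22. Without GFP mouse 2, GFP mouse 3 or the moFoxp2 mouse 1 of these markers dipped, and 4 did without GFP mouse 1.

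Oligodendrocyte markers differed on the L5-6 side. All 12 were below L5-6, beside 19.5% of all genes tested, with a median of -3.31. Only 1, Cldn11, was below L2-3, beside 18.8% of all genes, and the median there was -0.091. Mag, a myelin gene, differed by -0.036 ± 0.30 from L2-3 (adjusted p = 0.937) and -4.10 ± 0.26 from L5-6 (adjusted p = 2.64e-07). Pdgfra, the receptor of oligodendrocyte precursors, dipped, at 189.8 to 292 CPM (median 242) in L2-3, 135 to 182 (median 166) in L4 and 222 to 425 (median 249) in L5-6, by -0.61 ± 0.15 from L2-3 (adjusted p = 0.00593) and -0.77 ± 0.15 from L5-6 (adjusted p = 0.00167). It was the only 1 of 8 precursor markers to do so.

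**Figure D5:**
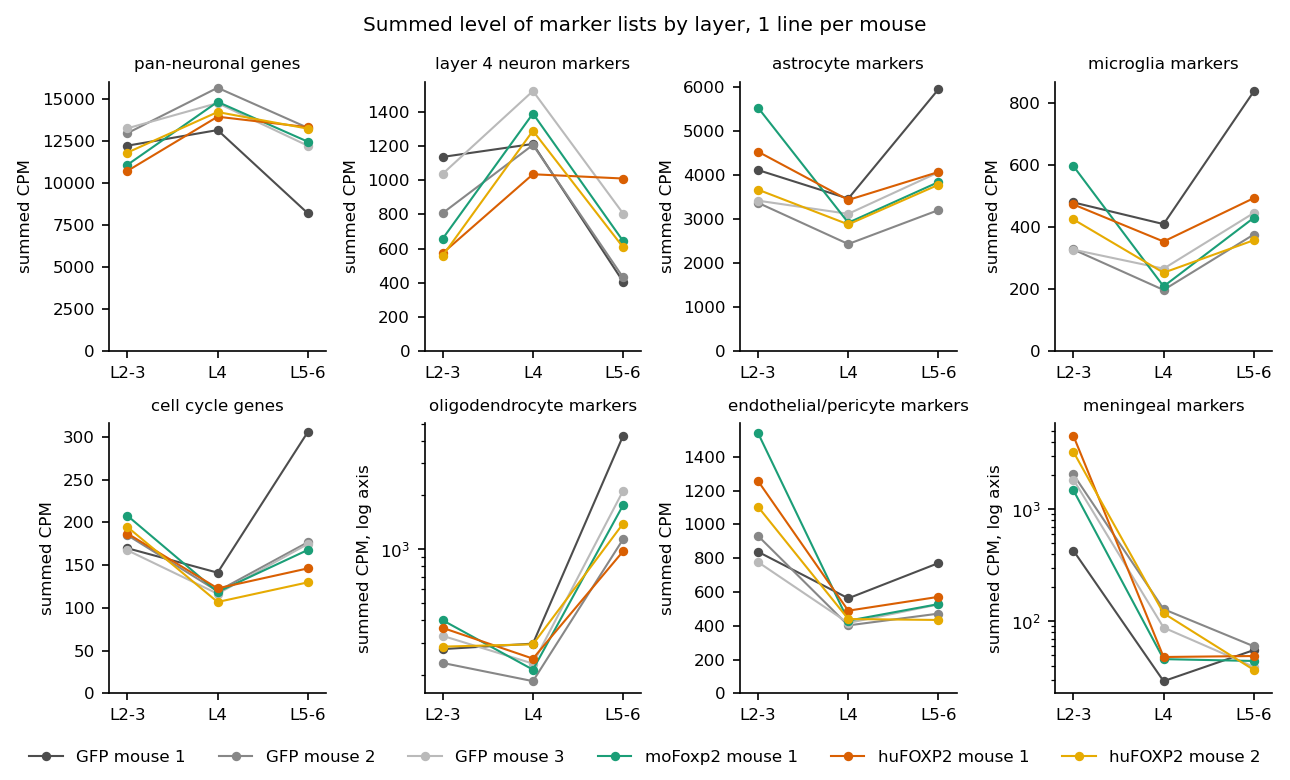
Summed level (CPM) of 8 marker lists in L2-3, L4 and L5-6, with 1 line per mouse; oligodendrocyte and meningeal panels have log axes and the others start at 0. Pan-neuronal and layer 4 sums are highest in L4 in 6 of 6 mice, astrocyte, microglia and cell cycle sums are lowest there in 6 of 6, and GFP mouse 1 (darkest grey) has the highest glial and cell cycle sums in L5-6.

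Every cell cycle gene tested dipped. Mki67, Top2a, Ccnb1, Ccna2, Cdk1, Birc5, Bub1, Aurkb, Mcm2 and Pcna, which act in replication and mitosis, were all lower in L4 than in either neighbour (10 of 10, beside 7.17% of all genes tested), with a median of -0.69. Mki67, the common mark of dividing cells (ENSMUSG00000031004.8, chr7:135689784-135716361, minus strand), measured 28.6 to 39.1 CPM (median 34.8) in L2-3, 17.1 to 26.3 (median 20.7) in L4 and 24.9 to 74.1 (median 36.6) in L5-6. It differed by -0.70 ± 0.15 from L2-3 (adjusted p = 0.00313) and -0.86 ± 0.15 from L5-6 (adjusted p = 0.00098). Mcm2, a helicase subunit of replication, measured 16.2 to 22.4 CPM (median 17.9) in L2-3, 11.1 to 12.9 (median 12.2) in L4 and 14.5 to 26.8 (median 16.6) in L5-6, and differed by -0.62 ± 0.12 from L2-3 (adjusted p = 0.00178) and -0.54 ± 0.12 from L5-6 (adjusted p = 0.00492), with L4 separate from both neighbours. Pcna, the replication clamp, had the smallest difference, -0.27 ± 0.071 from L2-3 (adjusted p = 0.00841) and -0.19 ± 0.071 from L5-6 (adjusted p = 0.0475).

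Their sum was 107 to 141 CPM in L4, 167 to 208 in L2-3 and 130 to 306 in L5-6, lowest in L4 in 6 of 6 mice. Leaving out 1 mouse, 5 dipped without GFP mouse 3, 6 without GFP mouse 2 and 7 to 9 without each of the others, and the median stayed between -0.74 and -0.66. Among GFP mice alone no gene of the list passed, at a median of -0.71, and among FOXP2 mice alone 2 did, at a median of -0.60. The microglia markers given above were also low against both neighbours. Of 8 oligodendrocyte precursor markers, 8 were below L5-6 and 1 was below L2-3, beside 19.5% and 18.8% of all genes tested. Which cells the cell cycle genes came from was not tested.

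Growth factor genes gave 5 dips and 1 peak of 26, beside 7.17% and 4.22% of all genes tested. Against the mean of both neighbours 11 were lower and 6 higher, and the median was -0.018, beside 0.017 over all genes. Bmp4 and Bmp3, both bone morphogenetic proteins, differed by -2.40 ± 0.57 from L2-3 (adjusted p = 0.00488) and -2.80 ± 0.55 from L5-6 (adjusted p = 0.00192) and by -1.20 ± 0.28 from L2-3 (adjusted p = 0.00499) and -2.78 ± 0.27 from L5-6 (adjusted p = 9.24e-06). Ngfr, the p75 neurotrophin receptor, differed by -0.99 ± 0.25 from L2-3 (adjusted p = 0.00641) and -2.51 ± 0.23 from L5-6 (adjusted p = 4.42e-06), and Fgfr1, a fibroblast growth factor receptor, by -1.03 ± 0.15 from L2-3 (adjusted p = 0.000179) and -0.51 ± 0.15 from L5-6 (adjusted p = 0.0168). Fgf9 was the peak, with 4.17 to 8.06 CPM (median 6.32) in L2-3, 9.51 to 13.1 (median 10.8) in L4 and 3.25 to 12.7 (median 6.99) in L5-6 and a difference of 0.81 ± 0.24 from L2-3 (adjusted p = 0.0189) and 0.68 ± 0.24 from L5-6 (adjusted p = 0.0413). Among matrix proteoglycans the large aggregating forms Vcan and Bcan dipped with Sdc2 and Sdc4, and Cspg5 (neuroglycan C) peaked, by 0.21 ± 0.059 from L2-3 (adjusted p = 0.0116) and 0.22 ± 0.058 from L5-6 (adjusted p = 0.0118). When GFP mouse 2, GFP mouse 3, the moFoxp2 mouse or huFOXP2 mouse 2 was left out, 1 proteoglycan dipped. The factors Nfia and Nfib, which promote glial fate and deep-layer differentiation, were among the 4 transcription factors that dipped. Nfia differed by -0.41 ± 0.13 from L2-3 (adjusted p = 0.026) and -1.61 ± 0.13 from L5-6 (adjusted p = 2.16e-06), and Nfib by -0.27 ± 0.091 from L2-3 (adjusted p = 0.0318) and -0.79 ± 0.091 from L5-6 (adjusted p = 3.41e-05); L4 was lowest in 5 of 6 mice for both, and their calls were lost in 6 and 5 of 17 alternatives. Id2, an inhibitor of bHLH factors, differed by -0.51 ± 0.091 from L2-3 (adjusted p = 0.000803) and -0.52 ± 0.091 from L5-6 (adjusted p = 0.000913), a call lost in none of them.

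Markers of neighbouring neurons did not all place L4 between its neighbours. Over all genes tested L4 was above L2-3 for 17.7%, below it for 18.8%, above L5-6 for 15.6% and below it for 19.5%. Of 12 L2-3 markers 10 were above L5-6 in L4, 1 was above L2-3 and 0 were below L2-3. Their sum was highest in L4 in 4 of 6 mice. Cux2, an upper-layer homeobox gene, differed by 0.18 ± 0.23 from L2-3 (adjusted p = 0.556) and by 1.84 ± 0.24 from L5-6 (adjusted p = 9.38e-05). Rasgrf2, a Ras exchange factor of this list, peaked, with 114 to 183 CPM (median 135) in L2-3, 162 to 259 (median 209) in L4 and 47.6 to 130.3 (median 98.4) in L5-6. Of 12 L5 markers 5 were above L2-3 and 7 below L5-6. Fezf2, the selector of subcerebral neurons, differed by 2.39 from L2-3 (adjusted p = 8.95e-05) and by -1.21 from L5-6 (adjusted p = 0.00497), and Bcl11b by 0.89 and -1.08. Of 15 L6 and subplate markers 13 were below L5-6, with a median of -2.29, and 3 below L2-3, which are the dips Ctgf, Sulf1 and Nxph4. Syt6 differed by -3.44 from L5-6 and by 0.59 from L2-3 (adjusted p = 9.01e-07 and 0.102).

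Features that were not used to choose the 2 sets are given without a test. Peak genes had a median span of 44053 bp, dip genes 30635 bp and all tested genes 23667 bp. Their median level over the 18 libraries was 88.5 CPM for peaks, 11.4 CPM for dips and 21.3 CPM for the other genes. Protein-coding genes made up 96.7% of peaks, 97.9% of dips and 90.2% of the others. Promoters of peak genes had a median GC content of 63.0%, beside 60.3% for dips and 60.7% for all. A test calls small folds more readily at high counts, so the level of peak genes and their small folds are not independent of the calling.

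The mice did not carry the pattern equally. The share of the 645 peak genes that were highest in L4 was 83.7% in GFP mouse 1, 86.2% in huFOXP2 mouse 1 and 95.3% to 99.4% in the other mice, and that of the 1097 dip genes lowest in L4 was 87.4%, 90.1% and 95.6% to 98.8%. In 417 peak genes and 769 dip genes L4 was the highest or the lowest layer in all 6 mice. These shares describe genes called on the same mice. GFP mice alone gave 38 peaks and 167 dips, of which 24 and 131 were among those of all mice; FOXP2 mice alone gave 612 and 858, of which 288 and 600 were.

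The difference of the L4 contrast between FOXP2 and GFP mice was tested itself, with 3 mice on each side. No gene passed in edgeR (0% of 15295), the smallest adjusted p was 0.125, and 715 genes had an unadjusted p under 0.05. With no filter on low counts edgeR called 97 genes, and without GFP mouse 3 it called 1. DESeq2 called 2 genes, Tcerg1l and Etv1, a factor of L5 neurons, both lower in L4, relative to its neighbours, in FOXP2 mice: Tcerg1l by -1.02 ± 0.18 (adjusted p = 0.000126 in DESeq2 and 0.125 in edgeR) and Etv1 by -0.63 ± 0.14 (adjusted p = 0.0389 and 0.495). For Rorb this difference was 0.30 ± 0.41 (edgeR's adjusted p = 0.99997), for Grm4 0.54 ± 0.33, for Gfap -0.53 ± 0.43 and for Aldh1a1 -0.30 ± 0.33. These intervals are wide, and they do not show that the constructs left the L4 pattern alike.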

How the data were processed

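RNA of L2-3, L4 and L5-6 from 6 mice was sequenced, giving 18 libraries. The authors deposited 1 table of raw read counts per gene, with 54446 genes; the submitters' processing notes name STAR, HTSeq and mm10, and no source used here gives their versions or the strand setting. Gene positions were taken from GENCODE M21 (GRCm38) for the same identifiers. Genes passing edgeR's filterByExpr (minimum count 10, minimum total 15) numbered 15295. They were fitted with TMM factors and edgeR's quasi-likelihood test (edgeR 4.0.16, limma 3.58.1, R 4.3.3), with layer and mouse as terms, and L4 was compared with L2-3, with L5-6 and with their mean; adjusted p-values are Benjamini-Hochberg over all genes tested. SE is the log2 fold over the square root of F. CPM are counts over TMM-scaled library totals.

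The mouse was the block because the 3 layers of a mouse carry 1 replicate number and construct. Deviations from layer means correlated between layers of 1 mouse with a median r of 0.51 (0.00094 to 0.67), above 0.1 in 17 of 18 pairs. Replicates are separate mice by their labels, and their counts differed beyond sampling noise (chi-square per degree of freedom 5.34 to 59.3). Totals of 10111149 to 23404528 set the precision.

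Genes described in full are Rorb, Whrn and Scnn1a, and the 15 peaks and 15 dips with the largest smaller fold, extreme in L4 in 6 of 6 mice, with a mean of at least 1 CPM, pseudogenes and unnamed models left out. Other genes come from 40 lists (up to 4 per list by p) or were chosen after their values were seen. The members and lists were chosen with earlier results of these data known. The pan-neuronal list, library totals as a scale and leaving out GFP mouse 1 with huFOXP2 mouse 1 were added after seeing the data. Alternatives were RLE factors, DESeq2 1.42.0, limma-voom, other filters, no block, 1 construct class, and leaving out each mouse. The steps were tested on simulated data. Some genes of the lists are counted but not reported here by name.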

Additional observations from a re-analysis of the deposited data

How the results depend on the processing

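Counts of called genes in the fit described were 5914 for L4 against the mean of its neighbours, 5586 against L2-3, 5364 against L5-6, 645 peaks, 1097 dips and 0 for the difference between FOXP2 and GFP mice. The counts of peaks, dips and the 3 L4 contrasts stayed within 1.5 times of these with RLE factors, DESeq2, limma-voom and both other filters. Without the replicate block, the mouse pairing being dropped, 3563 genes were called against L5-6, with 305 peaks and 711 dips. GFP mice alone gave 1518 genes against the mean, 952 against L2-3 and 3563 against L5-6, 38 peaks and 167 dips; FOXP2 mice alone gave 3105 against L5-6. With 1 mouse left out at a time there were 164 to 927 peaks (164 without the moFoxp2 mouse, 191 without huFOXP2 mouse 2, 205 without GFP mouse 2, 293 without GFP mouse 3, 405 without huFOXP2 mouse 1), 577 to 1300 dips (577, 647, 605, 693 and 872 in that order), 3590 to 7081 genes against L2-3 and 0 to 1 for the FOXP2 difference, which DESeq2 gave as 2 and edgeR without a filter as 97. Library totals gave 263 peaks, and the pan-neuronal scale gave 61 peaks and 2418 dips. Over all genes tested, the median difference from the mean of both neighbours moved from 0.017 to -0.25 on the pan-neuronal scale. Among only the 160 genes followed, this difference changed sign on that scale for 6 genes. They were Parm1 (-0.012), Gria1 (-0.0033), Cox5a (-0.051), Atp5a1 (-0.12), Pgam1 (-0.094) and Hk1 (-0.049). Asking for both folds of at least 1.5 left 75 peaks and 543 dips. The stricter fold rule makes fewer calls by construction. Calls did not simply follow the number of mice, since leaving out GFP mouse 1 gave 927 peaks and 1300 dips; the causes were not tested. Of 160 genes followed, 100 lost their call with GFP mice only, 38 without the moFoxp2 mouse and 0 without GFP mouse 1.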

Other observations

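Over all genes tested, 4.22% peaked and 7.17% dipped. L4 was above L2-3 for 17.7% of them, below L2-3 for 18.8% and below L5-6 for 19.5%. No cytosolic ribosomal protein gene and no mitochondrially encoded gene peaked. All 21 cytosolic ribosomal protein genes were lower in L4 than in L2-3, with a median of -0.32, and none dipped. The mitochondrially encoded genes were lower than L5-6 in 7 of 7, and mt-Nd4 dipped. Of 28 monoamine and acetylcholine receptors, Htr5a and Chrnb2 peaked, while 14 were lower in L4 than in L5-6. Among 20 neuropeptide genes Adcyap1, which encodes PACAP, peaked, and among 20 activity-induced genes Btg2 dipped. Both counts were near the shares over all genes. Neurofilament genes were above L2-3 in 4 of 5 and below L5-6 in 3 of 5.

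The largest smaller fold of any peak, 1.63, belonged to Ostn, chosen here after its values were seen. Ostn, the secreted peptide osteocrin, was highest in L4 in 5 of 6 mice and differed by 1.63 ± 0.47 from L2-3 (adjusted p = 0.0159) and 2.13 ± 0.49 from L5-6 (adjusted p = 0.00475). Grem1, a secreted inhibitor of bone morphogenetic proteins chosen in the same way, was also highest in 5 of 6 mice and differed by 1.54 ± 0.42 from L2-3 (adjusted p = 0.0117) and 1.34 ± 0.42 from L5-6 (adjusted p = 0.0236).

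Summed photoreceptor markers in huFOXP2 mouse 1 were 15.1 CPM in L2-3, 24.8 in L4 and 28.4 in L5-6. The highest sum in any other mouse was 3.83 CPM.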
